A study of Mus musculus with 8 samples.

Results

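The transcription factor p53 is encoded in the mouse by Trp53, and 10 genes that it is known to induce were followed here across 8 tumours. They are Mdm2, Ccng1, Bax, Bbc3, Perp, Eda2r, Phlda3, Zmat3, Sesn2 and Trp53inp1. They were chosen by name as p53-induced genes other than Cdkn1a, and all 10 were found by symbol among the 35275 genes of the deposited count table. All 10 also passed the filter on low counts that left 15412 genes for testing.

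The tumours came from conditional mice in which both copies of Nf2 and of Cdkn2a are floxed, and an adenovirus carrying Cre recombinase was injected into the peritoneum. In 3 primary peritoneal tumours (19, 20 and 127) Pak2 was wild-type. In 4 primary peritoneal tumours (13, 14A, 59 and 61) Pak2 was floxed too, and the labels give it as deleted. Tumour 14B, with the genotype of those 4, is labelled a secondary tumour. All 8 tumours, the controls included, are thus labelled as lacking Nf2 and Cdkn2a. No promoter for Cre is given, so the labels tie recombination to no cell type, and they give no age, sex or strain. Nor do they say whether the tumours came from separate animals, or whether 14A and 14B share a host. The p-values therefore measure only the spread between these samples. The series title places the study in Nf2-deficient tumour formation, and the comparison asks how the transcriptome differs between the Pak2 genotypes.

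In unstressed cells p53 is kept scarce by Mdm2, a ubiquitin ligase that marks it for destruction and that p53 itself induces, so that the pair forms a feedback loop. The Arf protein, 1 of the products of Cdkn2a, binds Mdm2 and relieves p53 when growth signals are excessive. Stabilised p53 binds DNA and raises genes that arrest the cell cycle, repair DNA, restrain growth signalling or start cell death. Mesotheliomas commonly lose NF2 and CDKN2A, and loss of Arf is a way in which tumours weaken p53 without mutating it.

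The p53 response element is a pair of decamers, and a match to it near a start site marks a possible place for p53 to bind. Binding was not measured here. RefSeq promoter windows of the GRCm38.p6 build, running from 250 bases before a transcript start to 50 after it, were held for 7 of the 10 genes: Mdm2, Ccng1, Bax, Bbc3, Eda2r, Phlda3 and Sesn2. The windows were searched for the p53 consensus site, with at most 3 mismatches in all, the core C and G of each decamer kept and 0 or 1 base between the decamers. The consensus is its own reverse complement, so the search covers both strands. Ccng1, Bax and Bbc3 each held a match, and these 3 stretches are shown with 20 bases on either side, 5′ to 3′ on the gene's strand. The whole site is in capitals, mismatched bases and any base between the decamers included.
Ccng1: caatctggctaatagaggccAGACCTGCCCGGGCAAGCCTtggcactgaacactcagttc
Bax: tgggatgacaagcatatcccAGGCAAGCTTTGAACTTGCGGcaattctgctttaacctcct
Bbc3: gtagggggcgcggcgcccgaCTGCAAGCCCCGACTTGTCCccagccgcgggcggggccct
The Ccng1 stretch is chr11:40755442-40755501 on the minus strand, and its site has 1 mismatch and lies 195 to 176 bases before the start. The Bax stretch is chr7:45467059-45467119 on the minus strand, with 2 mismatches and 1 base between the decamers, 201 to 181 bases before the start. The Bbc3 stretch is chr7:16309466-16309525 on the plus strand, with 3 mismatches, 97 to 78 bases before the start of the first of its 3 windows. A match was held by 3 of 7 of these genes (42.9%), by 11 of 44 other p53 targets with a window (25.0%), Cdkn1a among them, and by 884 of all 27025 genes (3.27%). The genes were listed because p53 induces them, so this is a description of the list. No match in the windows of Mdm2, Eda2r, Phlda3 and Sesn2 says only that these letters are not in these windows. Mdm2 is known to be induced from a promoter inside its first intron.

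Total counts were lowest in tumour 14B (13469900) and highest in 14A (20402400). Values below are CPM (counts scaled to library size, after TMM normalisation) unless given per kilobase, and every log2 fold change is the value labelled Pak2-null less the wild-type value. The tumours labelled Pak2-null had no less Pak2 transcript than the wild-type: the gene measured 128, 90.1 and 92.7 CPM in tumours 19, 20 and 127, and 186, 238, 165 and 131 CPM in tumours 13, 14A, 59 and 61. Gene counts do not separate the deleted exons from the rest, so they do not check the deletion. The 10 mesothelial genes summed to 128 to 280 CPM in the wild-type tumours, 71.7 to 351 CPM in the 4 labelled Pak2-null and 171 CPM in 14B. None of the 10 was at 0 counts in all 8 tumours. Of 2 genes picked from this list, Msln ranged from 1.11 to 132 CPM and Calb2 reached at most 0.308 CPM. In tumour 14B the pancreatic protease gene Ctrb1 alone took 5.04% of all counts. Between the groups, 10 skeletal muscle genes summed to 2706 to 30968 CPM in the wild-type tumours and to 13.1 to 744 CPM in the 4 labelled Pak2-null. Tumours 14A and 14B also stood apart, with summed fibroblast and pericyte genes at 1977 and 3135 CPM against at least 13922 CPM in the other 6. In whole tumours, fewer cells of a type and less RNA per cell cannot be told apart.

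The 10 targets differed widely in level. Per kilobase of transcript, the median over the 8 tumours was highest for Phlda3 (108 CPM per kilobase), then Bax (92.7), Ccng1 (57.1) and Mdm2 (29.9). Bbc3 (10.7), Trp53inp1 (9.01), Sesn2 (7.40), Eda2r (4.69), Zmat3 (4.27) and Perp (2.01) followed. The steps from Ccng1 to Mdm2 and from Mdm2 to Bbc3 held in 8 of 8 tumours, and that from Bax to Ccng1 in 7 of 8. Other neighbours in this order were not separated: Phlda3 exceeded Bax in 4 of 8 tumours, Trp53inp1 exceeded Sesn2 in 4 of 8, and Eda2r exceeded Zmat3 in only 2 of 8. The gene with the highest level per kilobase was Bax in tumours 19, 14A, 59 and 14B, Phlda3 in 127 and 13, Ccng1 in 20, and Perp in 61.

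**Figure D1:**
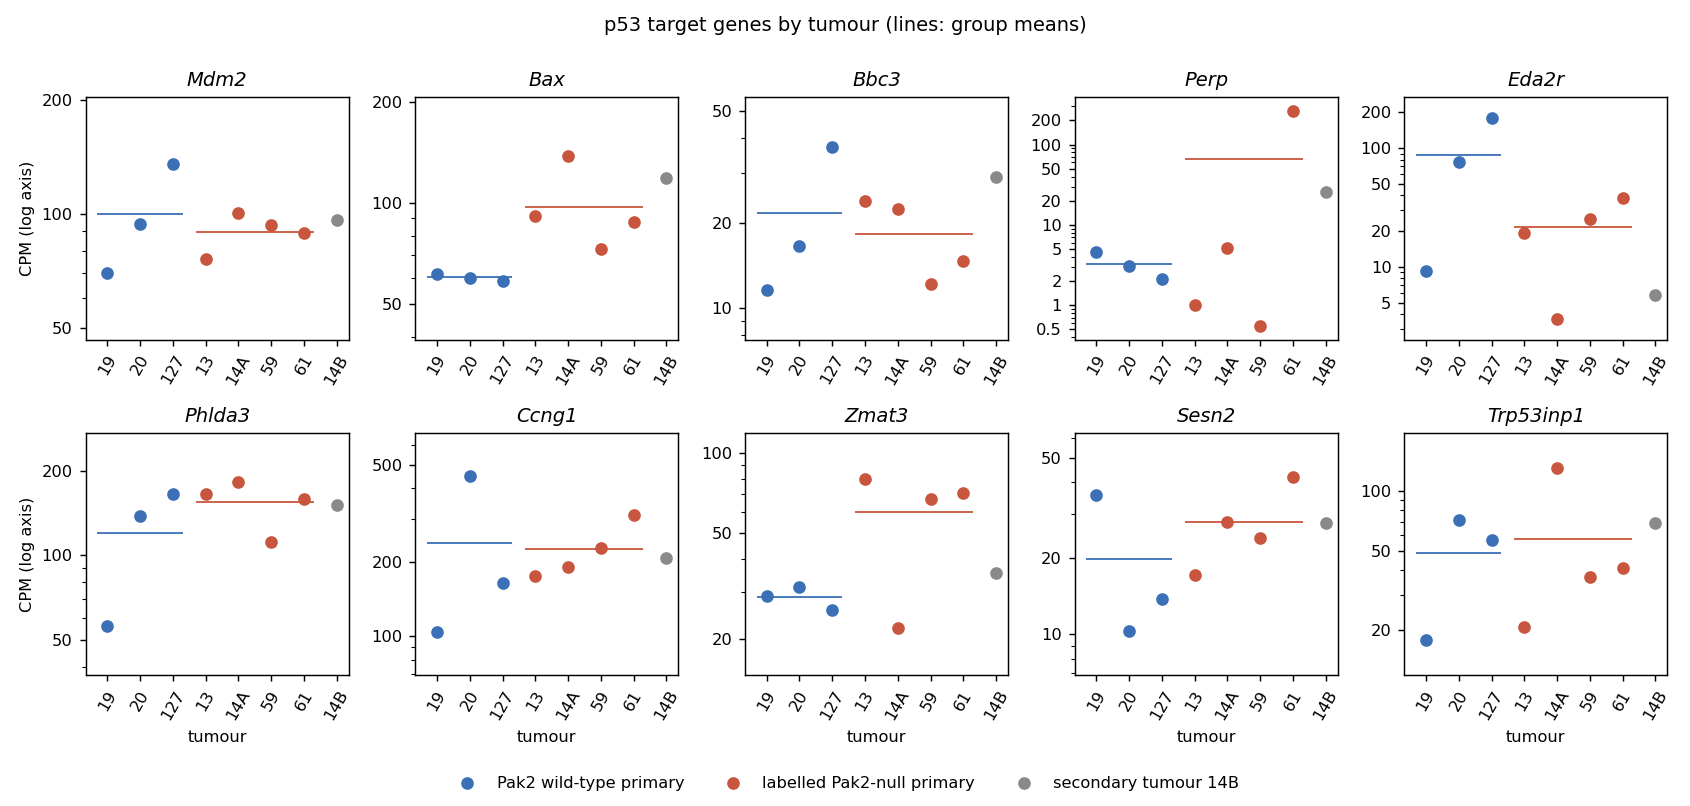
CPM (log axes, which differ between panels) of the 10 p53 targets in each tumour; points are tumours, coloured by group, and lines are group means. Bax is the gene whose 3 wild-type points (58.8 to 61.8) all lie below the 4 points labelled Pak2-null (73.3 to 138), and Perp in tumour 61 (260.0) lies far above its group.

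None of the 10 passed an adjusted p of 0.05 between the groups, from the edgeR quasi-likelihood F-test with Benjamini-Hochberg correction, where 0.0714% of all tested genes did (11 of 15412). DESeq2, which gave no adjusted p for Perp, and limma-voom also called 0 of the 10, and limma-voom with quality weights called 1, Zmat3. Of all 15412 tested genes they called 1149, 25 and 950 in that order. At an unadjusted p under 0.05 in edgeR there were 2 of 10, Bax and Zmat3, both with the higher mean in the tumours labelled Pak2-null, beside 12.9% of all tested genes. That count was 0 without tumour 20 or without tumour 127, and 1 without tumour 13 or without tumour 61. The groups did not overlap for 1 of 10, Bax, beside 14.0% of all tested genes, so this share lay near the background. The mean was higher in the group labelled Pak2-null for 6 of the 10 and lower for 4, beside 8403 and 7009 of all tested genes. The median log2 fold change of the 10 was 0.32, against 0.06 over all tested genes; it was -0.07 without tumour 19, 0.15 without tumour 14A and 0.05 without tumour 61. Exact two-sided permutation of 3 against 4 tumours could not give a p under 0.0571.

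**Figure D2:**
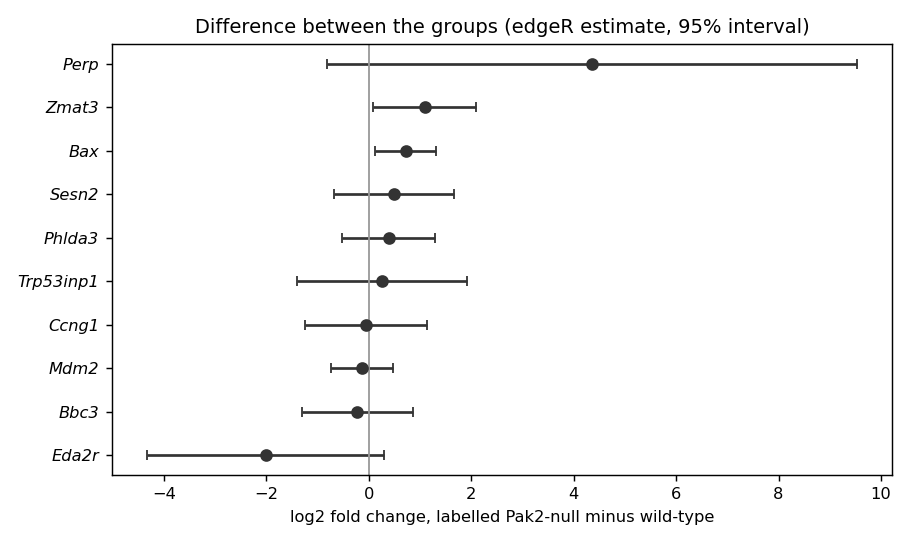
Log2 fold change of each target (labelled Pak2-null minus wild-type), with its 95% interval derived from the F statistic of the edgeR fit over 3 and 4 tumours. The intervals of Bax (0.13 to 1.31) and Zmat3 (0.08 to 2.10) lie above 0 before adjustment, and the other 8 include 0.

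Mdm2 (ENSMUSG00000020184, chromosome 10, 117688888 to 117710758, minus strand), the ligase that limits p53, was the steadiest of the set. It measured 69.9, 94.1 and 135 CPM in wild-type tumours 19, 20 and 127, and 75.9, 100.5, 93.3 and 88.9 CPM in tumours 13, 14A, 59 and 61. Tumour 19 was lowest and tumour 127 highest, so the wild-type tumours enclosed all 4 labelled Pak2-null. The means were 99.8 ± 33.0 (SD, n = 3) and 89.6 ± 10.4 CPM (SD, n = 4). For Mdm2 the log2 fold change was -0.13 (SE 0.26, 95% interval -0.74 to 0.48; edgeR quasi-likelihood F-test, Benjamini-Hochberg adjusted p = 0.859). Its log2 CPM had an SD of 0.28 over the 8 tumours, and 15.6% of tested genes had a lower SD. The median SD of all tested genes was 0.60. The log2 fold change was -0.35 without tumour 19 and 0.13 without tumour 127.

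Ccng1 (ENSMUSG00000020326, chromosome 11, 40748552 to 40755311, minus strand) encodes cyclin G1, which brings a phosphatase to Mdm2 and so belongs to the feedback arm with it. It measured 104, 451 and 164 CPM in tumours 19, 20 and 127, and 176, 192, 228 and 311 CPM in tumours 13, 14A, 59 and 61. The wild-type tumours held both the lowest and the highest value, a spread of 4.34-fold, against 1.77-fold among those labelled Pak2-null. Means were 239.6 ± 185 (SD, n = 3) and 227 ± 60.3 CPM (SD, n = 4). For Ccng1 the log2 fold change was -0.06 (SE 0.51, 95% interval -1.25 to 1.13; edgeR quasi-likelihood F-test, Benjamini-Hochberg adjusted p = 0.974). It was -0.43 without tumour 19 and 0.78 without tumour 20.

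Among the genes of cell death, Bax (ENSMUSG00000003873, chromosome 7, 45461695 to 45466898, minus strand) encodes a pore-forming protein that opens the outer mitochondrial membrane. It measured 61.8, 59.7 and 58.8 CPM in tumours 19, 20 and 127, and 91.8, 138, 73.3 and 87.9 CPM in tumours 13, 14A, 59 and 61. The wild-type tumours lay within 1.05-fold of each other and below all 4 others, with 14A highest. Means were 60.1 ± 1.49 (SD, n = 3) and 97.6 ± 27.9 CPM (SD, n = 4). For Bax the log2 fold change was 0.72 (SE 0.25, unadjusted p = 0.0233; edgeR quasi-likelihood F-test, Benjamini-Hochberg adjusted p = 0.280). It ranged from 0.51 to 0.82 with each tumour left out in turn, and the adjusted p over all 16 alternative settings from 0.101 to 0.640. Its exons overlap those of Gm45808 on the same strand in GENCODE M21. No gene of that name is among the deposited counts, so a split of reads between the pair cannot be examined.

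Bbc3 (ENSMUSG00000002083, chromosome 7, 16309616 to 16318205, plus strand) encodes Puma, which frees Bax and its relatives from their BCL2-type inhibitors. It measured 11.5, 16.5 and 37.3 CPM in tumours 19, 20 and 127, and 24.0, 22.5, 12.2 and 14.7 CPM in tumours 13, 14A, 59 and 61. As for Mdm2, tumour 19 was lowest and tumour 127 highest, and the groups overlapped throughout. Means were 21.8 ± 13.7 (SD, n = 3) and 18.3 ± 5.80 CPM (SD, n = 4). For Bbc3 the log2 fold change was -0.23 (SE 0.46, 95% interval -1.31 to 0.86; edgeR quasi-likelihood F-test, Benjamini-Hochberg adjusted p = 0.870). It was -0.55 without tumour 19 and 0.39 without tumour 127.

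Perp (ENSMUSG00000019851, chromosome 10, 18845071 to 18857073, plus strand) encodes a tetraspan membrane protein of desmosomes, the junctions of stratified epithelia, and is also linked to p53-driven death. It measured 4.54, 3.10 and 2.12 CPM in tumours 19, 20 and 127, and 0.991, 5.09, 0.555 and 260.0 CPM in tumours 13, 14A, 59 and 61. A single tumour, 61, with 4501 counts, thus set the mean of its group, while tumour 59 had 9 counts and was the lowest of all. The group medians were 3.10 and 3.04 CPM. Means were 3.25 ± 1.22 (SD, n = 3) and 66.7 ± 129 CPM (SD, n = 4). For Perp the log2 fold change was 4.35 (SE 2.21, 95% interval -0.83 to 9.53; edgeR quasi-likelihood F-test, Benjamini-Hochberg adjusted p = 0.468), and it was -0.53 without tumour 61.

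Epithelial transcripts stood high in the same tumour. The 16 epithelial and desmosome genes summed to 1622 CPM in tumour 61, against 161 to 187 CPM in tumours 13, 14A and 59 and 238 to 559 CPM in the wild-type tumours. None of the 16 was at 0 counts in all 8 tumours, and 2 were at 0 in 14A, in 59 and in 14B. Some genes of that list were picked out after their values were seen. Krt14, a keratin of basal epithelium, measured 443 CPM in tumour 61 and at most 29.3 CPM elsewhere. Dsp, the desmosome's plakin, measured 318 CPM there, with tumour 19 next at 69.7 CPM. Trp63, the p53 relative that governs stratified epithelium, did not single out tumour 61: it measured 28.9 CPM there and 29.4 CPM in tumour 127, where Perp was 2.12 CPM. The part of epithelial cells in the Perp values was not tested.

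**Figure D3:**
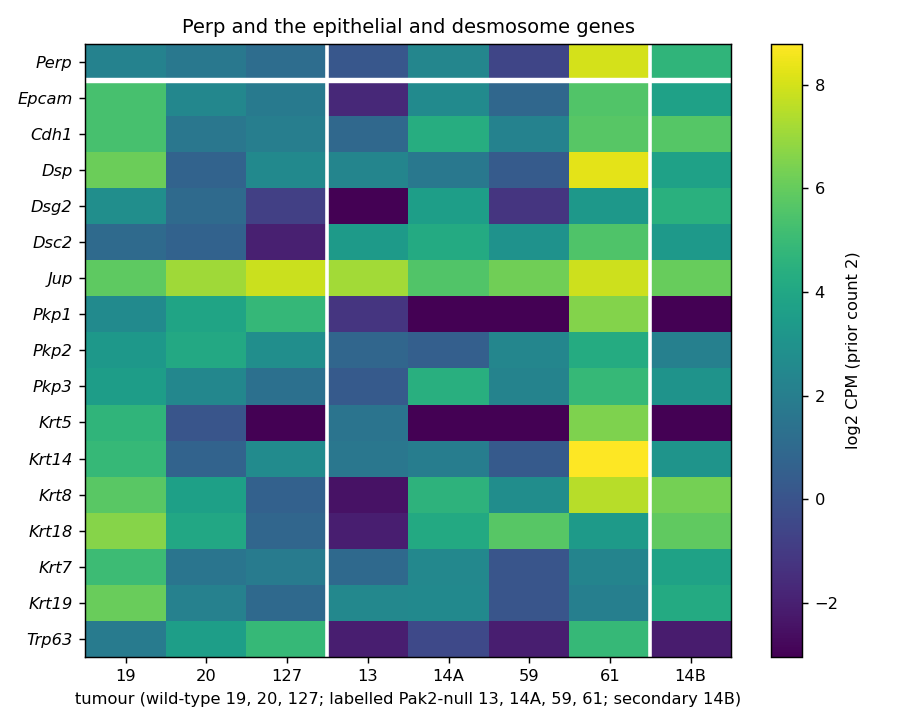
Log2 CPM (prior count 2; colour scale at right) of Perp, top row, and the 16 epithelial and desmosome genes in each tumour, with white lines between the groups. In tumour 61 Perp, Krt14 and Dsp are near the top of the scale, while Krt18, Krt7 and Krt19 are higher in wild-type tumour 19.

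Eda2r (ENSMUSG00000034457, X chromosome, 97333840 to 97377216, minus strand) encodes the receptor of the ectodysplasin A2 isoform, a member of the TNF receptor family with known roles in muscle. It measured 9.23, 75.8 and 179 CPM in tumours 19, 20 and 127, and 19.1, 3.65, 25.4 and 37.8 CPM in tumours 13, 14A, 59 and 61. Tumours 20 and 127 were above all others, and tumour 19 was lower than 3 of the 4 labelled Pak2-null. Means were 88.0 ± 85.5 (SD, n = 3) and 21.5 ± 14.2 CPM (SD, n = 4). For Eda2r the log2 fold change was -2.01 (SE 0.99, 95% interval -4.32 to 0.30; edgeR quasi-likelihood F-test, Benjamini-Hochberg adjusted p = 0.452). It was -2.56 without tumour 19 and -0.98 without tumour 127, the largest step for this gene.

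Skeletal muscle genes were highest in the same pair of tumours. Their 10-gene sum was 30968 CPM in tumour 20 and 23087 CPM in tumour 127, then 2706 CPM in tumour 19, which had less Eda2r than tumours 13, 59 and 61 with sums of 13.1, 359 and 744 CPM. Eda2r is X-linked, and the sex transcripts also differed: Xist measured 151, 459 and 26.6 CPM in tumours 19, 20 and 127 and at most 1.33 CPM in the other 5. Ddx3y, on the Y chromosome, measured 1.62 and 1.24 CPM in tumours 19 and 20 and at least 84.2 CPM in the other 6. Tumour 127, with the most Eda2r, carried both transcripts. The tumours labelled Pak2-null all had low Xist and high Ddx3y, and wild-type tumours 19 and 20 had the reverse. These transcripts thus differed along with the Pak2 label, in every comparison between the groups. The part of muscle and of sex in the Eda2r values, and of sex in the other differences between the groups, was not tested.

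**Figure D4:**
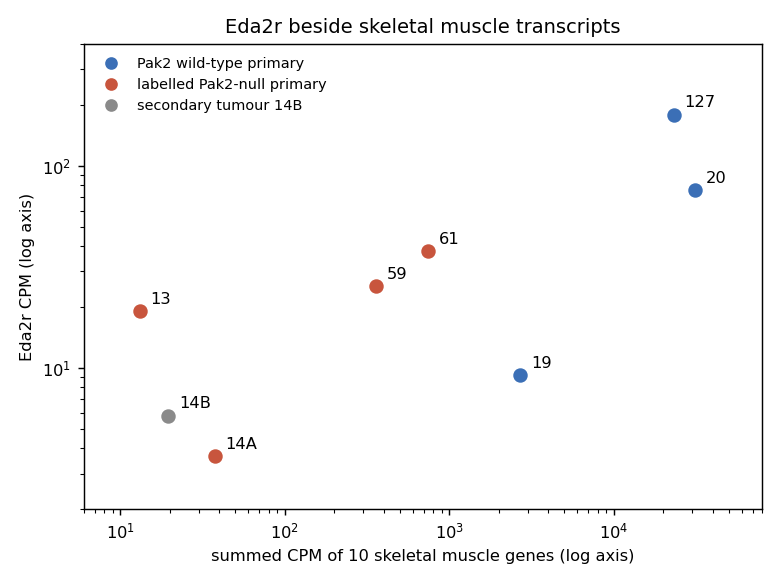
Eda2r CPM against the summed CPM of 10 skeletal muscle genes (both log axes), 1 point per tumour, coloured by group. Tumours 20 and 127 are highest on both axes, while tumour 19 combines a muscle sum of 2706 CPM with an Eda2r level of 9.23 CPM.

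Phlda3 (ENSMUSG00000041801, chromosome 1, 135766119 to 135769136, plus strand) encodes a small pleckstrin-homology protein that competes with Akt for membrane lipids and so restrains growth signalling. It measured 56.1, 138 and 166 CPM in tumours 19, 20 and 127, and 165, 182, 112 and 158 CPM in tumours 13, 14A, 59 and 61. Tumour 19 lay apart below all others, and the remaining tumours of both groups overlapped. Means were 120.0 ± 57.0 (SD, n = 3) and 154 ± 30.1 CPM (SD, n = 4). For Phlda3 the log2 fold change was 0.39 (SE 0.39, 95% interval -0.52 to 1.30; edgeR quasi-likelihood F-test, Benjamini-Hochberg adjusted p = 0.717). It was 0.03 without tumour 19 and 0.67 without tumour 127.

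Zmat3 (ENSMUSG00000027663, chromosome 3, 32334796 to 32365678, minus strand) encodes a zinc-finger protein that binds RNA and has a part in splicing and in growth suppression by p53. It measured 28.9, 31.2 and 25.7 CPM in tumours 19, 20 and 127, and 79.7, 21.9, 67.5 and 70.6 CPM in tumours 13, 14A, 59 and 61. Of the 4 labelled Pak2-null, 3 lay above every wild-type tumour and 14A lay below every wild-type tumour. Means were 28.6 ± 2.76 (SD, n = 3) and 59.9 ± 25.9 CPM (SD, n = 4). For Zmat3 the log2 fold change was 1.09 (SE 0.43, unadjusted p = 0.0379; edgeR quasi-likelihood F-test, Benjamini-Hochberg adjusted p = 0.348). It was 1.36 without tumour 14A (same edgeR test, adjusted p = 0.0632), and limma-voom with quality weights, which give less weight to discordant tumours, gave 1.21 (adjusted p = 0.0394). The adjusted p ranged from 0.0394 to 0.710 over the 16 alternatives. Tumours 14A and 14B, with 21.9 and 35.2 CPM, were those low in fibroblast and pericyte genes and had leukocyte sums of 6043 and 5046 CPM. Tumour 59 had a leukocyte sum of 5373 CPM with Zmat3 at 67.5 CPM; the part of cell makeup in the Zmat3 values was not tested.

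Sesn2 (ENSMUSG00000028893, chromosome 4, 132492032 to 132510501, minus strand) encodes sestrin 2, a leucine sensor that restrains the mTORC1 growth pathway and that stress through ATF4 also induces. It measured 35.6, 10.3 and 13.8 CPM in tumours 19, 20 and 127, and 17.2, 27.8, 23.9 and 41.9 CPM in tumours 13, 14A, 59 and 61. Wild-type tumours 20 and 127 were the lowest of all 8 and tumour 19 was second only to 61. Means were 19.9 ± 13.7 (SD, n = 3) and 27.7 ± 10.4 CPM (SD, n = 4). For Sesn2 the log2 fold change was 0.49 (SE 0.50, 95% interval -0.68 to 1.67; edgeR quasi-likelihood F-test, Benjamini-Hochberg adjusted p = 0.719). It was 1.21 without tumour 19, 0.18 without tumour 20, 0.27 without tumour 127 and 0.23 without tumour 61. Summed ATF4 stress targets were 722.5, 772 and 870 CPM in tumours 19, 20 and 127, and 460.4, 925.5, 602 and 884 CPM in tumours 13, 14A, 59 and 61. In the wild-type tumours the sum was lowest in 19, where Sesn2 was highest, and in those labelled Pak2-null tumours 13 and then 59 were lowest on both; the part of ATF4 in the Sesn2 values was not tested. None of those 13 genes passed by edgeR, against 1 by DESeq2 (Vldlr) and 2 by limma-voom with quality weights (Vldlr and Chac1). For 1 of the 13 DESeq2 gave no adjusted p. DESeq2 called 1149 of all 15412 tested genes, and limma-voom with quality weights called 950. Of the 13, 5 had the higher and 8 the lower mean in the tumours labelled Pak2-null, with a median log2 fold change of -0.23. The lowest adjusted p among them was 0.116, for Vldlr, a lipoprotein receptor (log2 fold change -2.05, SE 0.41; edgeR quasi-likelihood F-test with Benjamini-Hochberg correction).

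Trp53inp1 (ENSMUSG00000028211, chromosome 4, 11156431 to 11174379, plus strand) encodes a stress protein of nuclear bodies and autophagosomes that promotes p53 phosphorylation. It measured 17.8, 71.9 and 56.7 CPM in tumours 19, 20 and 127, and 20.7, 132, 36.8 and 41.2 CPM in tumours 13, 14A, 59 and 61. Tumour 14A was highest and tumours 19 and 13, of different groups, were lowest. Means were 48.8 ± 27.9 (SD, n = 3) and 57.6 ± 50.2 CPM (SD, n = 4). For Trp53inp1 the log2 fold change was 0.26 (SE 0.71, 95% interval -1.41 to 1.92; edgeR quasi-likelihood F-test, Benjamini-Hochberg adjusted p = 0.907). It was -0.55 without tumour 14A and 0.65 without tumour 20. Tumour 14A also had the highest leukocyte sum, 6043 CPM over 14 genes, against 1523 to 5373 CPM in the other 6 primary tumours. Ptprc, the pan-leukocyte phosphatase CD45, was picked from that list and differed more than the sum. It measured 1585 CPM in 14A against 79.2 to 179 CPM in those 6. Tumour 59 had a leukocyte sum of 5373 CPM with Trp53inp1 at 36.8 CPM; the part of leukocytes was not tested.

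The targets did not share an order of tumours. Tumour 19 was lowest for 5 of the 10 (Mdm2, Ccng1, Bbc3, Phlda3 and Trp53inp1) and yet above the 8-tumour median for Sesn2 and Perp. Tumour 127 was highest for Mdm2, Bbc3 and Eda2r and lowest for Bax, and tumour 14A was highest for Bax, Phlda3 and Trp53inp1 and lowest for Zmat3 and Eda2r. The number of the 10 above their own median was 2, 4 and 5 in tumours 19, 20 and 127, 4, 7, 3 and 7 in tumours 13, 14A, 59 and 61, and 8 in 14B. Together the 10 genes took 0.0426% of all counts in tumour 19 and 0.117% in tumour 61.

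Trp53 itself measured 131, 61.2 and 75.5 CPM in tumours 19, 20 and 127, and 98.5, 96.4, 119 and 130.2 CPM in tumours 13, 14A, 59 and 61. Tumour 19, where 5 of the targets were lowest, was level with tumour 61 at the top of the Trp53 range. Its log2 fold change was 0.34 (SE 0.30; edgeR quasi-likelihood F-test, Benjamini-Hochberg adjusted p = 0.675), 0.71 without tumour 19, 0.22 without tumour 127 and 0.13 without tumour 20. Mdm4, the Mdm2 relative that masks p53's activation domain, ranged from 71.3 CPM in tumour 19 to 178 CPM in tumour 14A. Cdkn2a, which is labelled as deleted in all 8 tumours, measured 2.37 to 3.15 CPM in the wild-type tumours and 3.89 to 5.70 CPM in the 4 labelled Pak2-null, with a log2 fold change of 0.80 (SE 0.36; edgeR quasi-likelihood F-test, Benjamini-Hochberg adjusted p = 0.411). Its counts pool the transcripts of Arf and of the cell-cycle inhibitor p16. Of 28 p53 regulators, 22 had the higher and 6 the lower mean in the tumours labelled Pak2-null, beside 8403 and 7009 of all tested genes. None of the 28 passed by edgeR, and their median log2 fold change was 0.20. Among the 3 with the lowest p, Chek2, a kinase that activates p53 after DNA breaks, had a log2 fold change of -0.99 (SE 0.45, adjusted p = 0.421), and Rpl23, a ribosomal protein that binds Mdm2, had 0.47 (SE 0.28, adjusted p = 0.538), from the edgeR quasi-likelihood F-test with Benjamini-Hochberg correction.

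**Figure D5:**
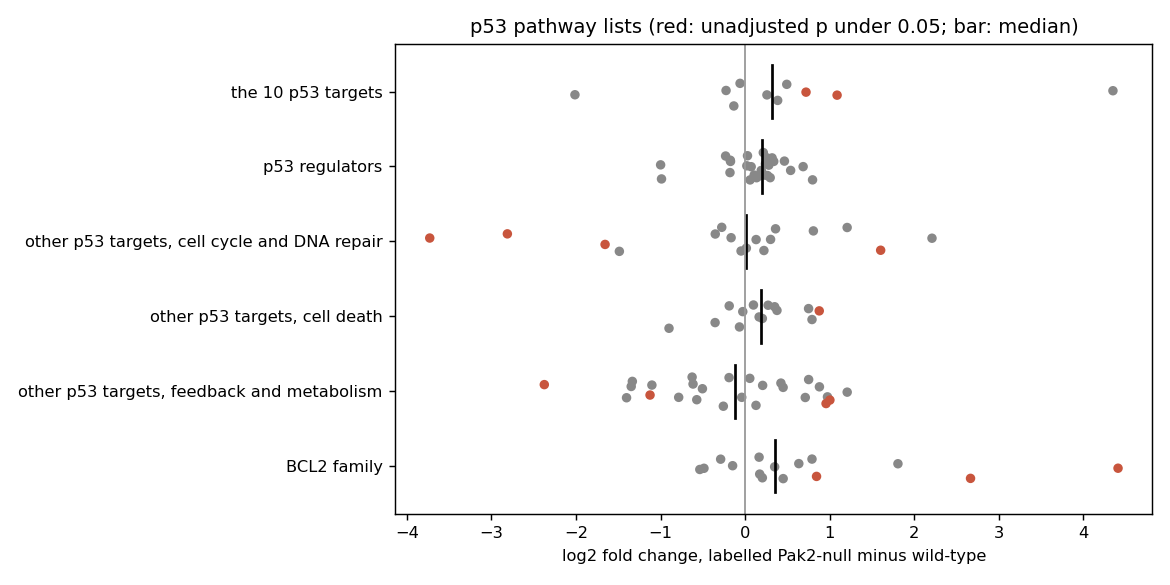
Log2 fold change (labelled Pak2-null minus wild-type) of each tested gene in 6 lists; bars are list medians and red points have an unadjusted p under 0.05. The list medians lie between -0.11 and 0.35, and the widest spread among the other p53 targets is in the cell cycle and DNA repair genes, from -3.73 to 2.21.

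Across 85 other p53 regulators and targets, all of which were tested, none passed by edgeR, against 6 by DESeq2, 1 by limma-voom and 7 by limma-voom with quality weights. Of all 15412 tested genes, 11, 1149, 25 and 950 passed in that order. DESeq2 gave no adjusted p for 1 of the 85. Among the 85, unadjusted p in edgeR was under 0.05 for 4 with the higher mean and 5 with the lower mean in the group labelled Pak2-null, beside 12.9% of all tested genes. The groups did not overlap for 6 with the higher and 5 with the lower mean, beside 14.0% of all tested genes. Neither count was a larger share of the 85 than of all genes. The median log2 fold change of the 85 was 0.13, against 0.06 over all tested genes. Within the 17 targets of cell cycle and DNA repair the differences ran both ways. Cdkn1c, which encodes the cyclin-dependent kinase inhibitor p57, measured 60.8, 68.2 and 124 CPM in tumours 19, 20 and 127, and 4.40, 3.13, 6.42 and 11.1 CPM in tumours 13, 14A, 59 and 61. Its groups did not overlap, with a log2 fold change of -3.73 (SE 0.50; edgeR quasi-likelihood F-test, Benjamini-Hochberg adjusted p = 0.0590), the lowest adjusted p of the pathway. Cdkn1a, the p21 gene and the best-known p53 target, measured 171, 309 and 719 CPM against 101, 122, 133 and 144 CPM in the same order. It too did not overlap, with a log2 fold change of -1.66 (SE 0.47; edgeR quasi-likelihood F-test, Benjamini-Hochberg adjusted p = 0.180), and it was -0.94 without tumour 127. Plk3, a stress-activated kinase, differed in the opposite sense: it measured 17.8, 16.5 and 10.4 CPM against 36.7, 47.8, 57.1 and 36.9 CPM, with a log2 fold change of 1.60 (SE 0.30; edgeR quasi-likelihood F-test, Benjamini-Hochberg adjusted p = 0.109). Cdkn1a in tumour 127, at 719 CPM, thus stood high beside Mdm2, Bbc3 and Eda2r, which were also highest there, while Bax was lowest there. The 10 skeletal muscle genes were also lower in the tumours labelled Pak2-null, with sums of 13.1 to 744 CPM against 2706 to 30968 CPM. The part of muscle in the Cdkn1a and Cdkn1c values was not tested.

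None of the 14 other targets in cell death passed by edgeR, with 9 higher and 5 lower means and a median log2 fold change of 0.19. Apaf1, the scaffold of the apoptosome that acts after Bax, measured 47.9, 39.2 and 30.1 CPM in tumours 19, 20 and 127, and 99.5, 55.2, 70.9 and 56.8 CPM in tumours 13, 14A, 59 and 61. Like those of Bax, its groups did not overlap, and its log2 fold change was 0.88 (SE 0.29; edgeR quasi-likelihood F-test, Benjamini-Hochberg adjusted p = 0.260). Pmaip1, which encodes the Puma-like protein Noxa, had a log2 fold change of 0.79 (SE 0.55) and the death receptor gene Fas -0.90 (SE 0.64), with adjusted p of 0.591 and 0.598 from the edgeR quasi-likelihood F-test with Benjamini-Hochberg correction. Without tumour 19 Pmaip1 was 0.33, and Fas was -0.56 without tumour 13 and -1.36 without tumour 14A.

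The 26 targets of feedback and metabolism had 12 higher and 14 lower means, none passed by edgeR, and their median log2 fold change was -0.11. The 3 with the lowest p were Trp53cor1, the long noncoding RNA transcribed next to Cdkn1a, at -2.37 (SE 0.70, adjusted p = 0.191), the thiamine transporter gene Slc19a2 at 1.0 (SE 0.34, adjusted p = 0.262) and the phosphatase gene Ptp4a3 at -1.12 (SE 0.38, adjusted p = 0.265), from the edgeR quasi-likelihood F-test with Benjamini-Hochberg correction. The groups did not overlap for any of these 3, which were named for their low p. Of the 26, they did not overlap for 2 with the higher and 3 with the lower mean, beside 14.0% of all tested genes. The value of Ptp4a3 was -0.65 without tumour 20.

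The BCL2 family sets how readily Bax and Puma act. Of its 16 listed genes 15 were tested, and 11 had the higher and 4 the lower mean, beside 8403 and 7009 of all tested genes. None of the 15 passed by edgeR, and their median log2 fold change was 0.35. Bcl2l11 passed by DESeq2 (adjusted p = 0.00472) and by limma-voom with quality weights (adjusted p = 0.0264), which called 1149 and 950 of all 15412 tested genes. Bcl2l11, which encodes the Puma-like protein Bim and is not a classical p53 target, measured 30.6, 22.3 and 27.7 CPM in tumours 19, 20 and 127, and 45.0, 40.7, 57.8 and 46.6 CPM in tumours 13, 14A, 59 and 61. The groups did not overlap, which held for 1 of the 15, beside 14.0% of all tested genes. For Bcl2l11 the log2 fold change was 0.84 (SE 0.22; edgeR quasi-likelihood F-test, Benjamini-Hochberg adjusted p = 0.154). Bcl2a1d, an inhibitor of death in leukocytes, measured 181 CPM in tumour 14A, 156 CPM in 14B and at most 10.6 CPM elsewhere, with a log2 fold change of 4.41 (SE 1.88; edgeR quasi-likelihood F-test, Benjamini-Hochberg adjusted p = 0.385), and 1.46 without tumour 14A. The other low-p member of the family, Bcl2a1b, had 2.67 (SE 0.94; edgeR quasi-likelihood F-test, Benjamini-Hochberg adjusted p = 0.287), and since the Bcl2a1 copies are nearly identical, the split of reads among them is uncertain. Bak1, the other pore former beside Bax, ranged from 43.4 to 94.5 CPM over the 8 tumours, and Bok from 17.8 to 47.1 CPM.

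Relatives of the targets by sequence, listed with the ligand gene Eda, gave no passing gene by edgeR among the 13 tested, and 6 had the higher and 7 the lower mean. Tnfrsf19 passed by DESeq2 (adjusted p = 1.2e-06), and with limma-voom quality weights both Tnfrsf19 (adjusted p = 0.0200) and Trp53inp2 (adjusted p = 0.0343) passed. The same fits called 1149 and 950 of all 15412 tested genes. Trp53inp2, the relative of Trp53inp1, measured 70.7, 176 and 238 CPM in tumours 19, 20 and 127, and 90.3, 53.3, 70.5 and 68.6 CPM in tumours 13, 14A, 59 and 61. In tumour 14A it was at its lowest while Trp53inp1 was at its highest; its log2 fold change was -1.17 (SE 0.41; edgeR quasi-likelihood F-test, Benjamini-Hochberg adjusted p = 0.279). Tnfrsf19, a receptor related to Eda2r, measured 13.3 to 29.6 CPM in the wild-type tumours and 0 to 1.08 CPM in the 4 labelled Pak2-null, with a log2 fold change of -5.42 (SE 1.07; edgeR quasi-likelihood F-test, Benjamini-Hochberg adjusted p = 0.114). Edar, the receptor of the other ectodysplasin isoform, reached at most 1.90 CPM, and the ligand gene Eda ranged from 0.433 to 5.81 CPM. Sesn1 ranged from 46.3 to 81.2 CPM and Sesn3 from 9.95 to 28.0 CPM, and Ccng2 from 39.1 to 66.8 CPM. Phlda1 ranged from 1.70 to 21.9 CPM and Phlda2 reached at most 1.21 CPM. Zmat2 ranged from 48.9 to 70.1 CPM, Zmat1 from 2.32 to 13.4 CPM, and Zmat4 reached at most 0.321 CPM. Pmp22, a tetraspan relative of Perp, ranged from 49.2 to 140.4 CPM.

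Secondary tumour 14B had no replicate, so its values are a description. It measured Mdm2 at 96.6, Ccng1 at 209, Bax at 119, Bbc3 at 29.2 and Perp at 25.7 CPM. Eda2r was at 5.81, Phlda3 at 150.4, Zmat3 at 35.2, Sesn2 at 27.5 and Trp53inp1 at 69.4 CPM. For 9 of the 10 this lay inside the range of the 4 primary tumours labelled Pak2-null, and Bbc3 lay above it. Perp lay inside only through tumour 61 (260.0 CPM), the others of that group being at 0.555 to 5.09 CPM. Of all tested genes 10529 of 15412 lay inside. Against 14A, the primary tumour with the same number, only Perp differed by over 1 on the log2 scale, by 2.31, which makes 1 of 10 beside 16.0% of all tested genes. With scaling by library size alone it was 2 of 10, since Trp53inp1 then differed by -1.12, and Ccng1 turned from 0.13 to -0.067. The next largest log2 differences, 14B minus 14A, were -0.92 for Trp53inp1, 0.68 for Zmat3 and 0.65 for Eda2r. Mdm2 at -0.06 and Sesn2 at -0.01 were nearly level. Epithelial genes summed to 366 CPM in 14B and 187 CPM in 14A, with Krt14 at 8.29 and 3.75 CPM; their part in the Perp difference was not tested.

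Perp, Eda2r, Trp53inp1 and Zmat3 varied most over the 8 tumours, with SDs of log2 CPM of 2.74, 1.88, 0.96 and 0.73. For each of these 4, the tested genes with the most similar centred log2 CPM were found by the root mean square distance over the 8 tumours, which share libraries and depth. The genes were picked by these same values, so their likeness to a target is not a separate observation. Nearest to Zmat3 was Mtap, an enzyme of methionine salvage, at a distance of 0.15, followed by Iffo2 at 0.16 and Ercc1, a DNA repair nuclease, at 0.20. Mtap measured 49.3, 50.6 and 43.6 CPM in tumours 19, 20 and 127 and 138, 36.4, 94.9 and 91.3 CPM in tumours 13, 14A, 59 and 61. Nearest to Eda2r was Cacna2d1, a calcium channel subunit of muscle and nerve, at 0.34, followed by Acsl6 at 0.44 and Fsd1l at 0.46. Cacna2d1 measured 26.0, 165 and 310 CPM in tumours 19, 20 and 127 and 5.86 to 51.5 CPM in the 4 labelled Pak2-null. Nearest to Trp53inp1 were Fam19a3 at 0.30, Ccr10 at 0.32 and Herc6 at 0.34. Perp had no close neighbour: Gjb2, the connexin 26 gene of epithelial gap junctions, came first at 0.98, with 226 CPM in tumour 61, and Atp6v0a4 and Bglap3 followed at 1.07 and 1.08.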

How the data were processed

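Bulk RNA of 8 tumours was sequenced from mRNA-enriched libraries, per the labels' protocols. The authors deposited raw read counts per gene and gene lengths; STAR, HTSeq and GRCm38 (mm10) are named per the submitters' processing notes. Their versions, the annotation release and the strand setting were not given in these sources. Coordinates are the deposited table's.

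Counts were analysed in R 4.3.3 with edgeR 4.0.16: filterByExpr (minimum count 10, total 15), TMM scaling, no covariate (no batch is labelled) and the quasi-likelihood test of 4 against 3 primary tumours, with Benjamini-Hochberg adjustment over 15412 genes at 0.05. Log2 CPM used a prior count of 2. A gene at 0 counts could be present at up to 3 counts, 0.139 to 0.311 CPM, for counting error only. DESeq2 1.42.0, limma 3.58.1 voom, other scalings and filters, tumour 14B added and each tumour left out were alternatives. The fitting was tested on simulated data with a single fixed dispersion and large changes only. That cannot show how it performs at the spread of these tumours. No columns were identical.

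The 10 targets and all lists were chosen with earlier results of these data known. Named are all 10 targets, Trp53, Cdkn1a, Mdm4, Cdkn2a, Pak2, Nf2 (74.6 to 142 CPM), the 3 genes with the lowest p of each pathway list, relatives of the targets, and the 3 nearest genes of any target whose SD of log2 CPM reached 0.7.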

Additional observations from a re-analysis of the deposited data

Results flagged for a closer look

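Perp in tumour 61, at 260.0 CPM, stood apart from the other 3 tumours labelled Pak2-null (0.555 to 5.09 CPM). The gap to its nearest neighbour was 0.98 of the group's whole range. Of 13 genes looked at in this way in the group of 4, it was the only one so far out; chance alone flags a small share of such groups.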

How the results depend on the processing

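Bax, Sesn2, Eda2r and Zmat3 kept their direction under all 16 alternatives. Of 22 other named genes, Pak2 and Nf2 included, 21 (all but Mdm4) kept theirs under the alternatives that gave a value, which were all 16 for 20 of them, 12 for Bcl2a1b and 15 for Trp53cor1. Directions turned for Ccng1 (0.17 with limma-voom) and, with limma-voom quality weights, for Trp53inp1 (-0.65), Phlda3 (-0.028), Mdm4 (-0.0037) and the median of the 10 targets (-0.11). Leaving out each tumour in turn gave log2 fold changes from -0.066 to 0.57 for that median, -0.43 to 0.78 for Ccng1, -0.55 to 0.65 for Trp53inp1, -0.35 to 0.13 for Mdm2, -0.55 to 0.39 for Bbc3, -0.53 to 4.76 for Perp and -0.040 to 0.39 for Mdm4. The cause was not tested. Of the targets, 0 passed by DESeq2, which gave no adjusted p for Perp, or by limma-voom, and 1 (Zmat3) passed with quality weights. Of the 85 other pathway genes, 6 passed by DESeq2 (Cdkn1a, Plk3, Gadd45a, Cdkn1c, Slc19a2, Trp53cor1), 1 by limma-voom (Cdkn1c), 7 with quality weights (Apaf1, Cdkn1a, Plk3, Chek2, Gadd45a, Cdkn1c, Slc19a2) and 2 with 14B added (Plk3, Cdkn1c). With 14B added, Tnfrsf19 (adjusted p = 0.0482) and Vldlr also passed. Of all genes, 11 passed, against 1149 by DESeq2, 25 by limma-voom, 950 with quality weights, 191 with 14B added, 20 with a filter of 1 CPM in 3 tumours and 0 to 59 with a tumour left out (59 without 19; 0 without 20, 13, 59 or 61). By library size alone the difference of 14B from 14A was -0.25 for Mdm2, -1.12 for Trp53inp1 and -0.067 for Ccng1. Without division by length the ranks became 1 for Ccng1, 2 for Phlda3, 3 for Mdm2, 4 for Bax, 5 for Trp53inp1, 6 for Zmat3 and 9 for Bbc3. No paired analysis was possible because the groups share no tumour numbers. The 3 and 4 tumours, and counts down to 9 for Perp, limit the precision to that of the printed intervals.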
